A study of Mus musculus with 16 samples.

Results

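The 16 tumour libraries were ranked by a progenitor score, and the 8 with the highest score were set against the 8 with the lowest. The classes were thus chosen by the levels of 8 genes in the same libraries, and all 16 libraries of the series were used. The score of a library is the mean log2(normalized count + 1) of Olig1, Olig2, Sox10 and Pdgfra, genes of oligodendrocyte progenitors, minus that of Gfap, Aqp4, Vim and Cd44, genes of astrocytes and of mesenchymal glioma cells. The classes were meant as progenitor-like against astrocyte- and mesenchymal-like tumours. Of 34 astrocyte markers that the score does not use, 16 lay higher and 18 lower in the libraries of high score, which goes against the astrocyte part of that name. Without libraries 6 and 8, 12 lay higher and 22 lower, and with the score as a continuous term 1 lay higher and 9 lower at an unadjusted p under 0.05 (1 and 3 without library 6), so this depends on the libraries and on the form of the score. The classes are therefore called high-score and low-score libraries here.

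The tumours are a mouse model of diffuse midline glioma, a brain cancer of children. RCAS viruses need the receptor tv-a to enter a cell, and they were injected on postnatal day 3 into C57BL/6 mice of genotype Nestin Tv-a; p53 fl/fl, in which the promoter of the neural progenitor gene Nestin drives the receptor. Every tumour was made with viruses for PDGFA and Cre, and so shares the growth factor and the loss of p53; by the labels, 9 samples are from tumours that also received the unmutated histone gene (H3.3WT) and 7 from tumours with the mutant one (H3.3K27M). Tumours were taken untreated at endpoint, and the H3.3 group of a library (H3.3WT for numbers 1 to 9, H3.3K27M for 10 to 16) comes from the sizes of the averaged sets, since no library can be tied to a labelled tumour. The labels give 9 and 7 samples, whereas the series' design text counts 3 tumours without and 5 with H3.3K27M. Whether all libraries are from separate tumours was therefore not settled, and p-values count each library as a replicate.

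Oligodendrocyte progenitors divide in the young brain, carry the PDGF receptor alpha and mature into the cells that make myelin. Diffuse midline gliomas hold many cells that resemble them, beside cells that express astrocyte genes and cells with a mesenchymal programme of matrix, S100 and CD44 genes. OLIG1, OLIG2 and SOX10 are transcription factors of the oligodendrocyte lineage, GFAP and vimentin are filament proteins, AQP4 is the water channel of astrocyte endfeet, and CD44 is a receptor for hyaluronan.

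Library depth ran from 11439144 reads in library 8, a low-score library, to 41730692 in library 16, a high-score library. The difference in mean reads between the classes had a two-sided exact permutation p of 0.175 over 12870 assignments. The slope of log2 values on exon length, relative to the mean of the libraries, averaged 0.06 log2 units per doubling of length in high-score and -0.06 in low-score libraries (exact permutation p = 0.0937). The female transcript Xist lay above Ddx3y, a gene of the Y chromosome, in 5 of 8 high-score and 4 of 8 low-score libraries. Within H3.3WT this was 4 of 4 against 2 of 5, and within H3.3K27M 1 of 4 against 2 of 3, so sex was not balanced within the groups, and its part in the results was not tested. P-values measure the spread between these libraries. In bulk tissue, fewer cells of a type and less RNA per cell cannot be told apart.

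Scores ran from 5.47 in library 16 to 0.75 in library 6, with a median of 4.56 in high-score and 3.17 in low-score libraries. The high-score libraries lay within 1.35 log2 units of each other, whereas the low-score libraries spread over 3.3. The boundary fell between library 7 at 4.12 and library 10 at 4.05, a smaller gap than most between neighbours, so the split cuts a continuous range. The progenitor side of the score ran from 14.76 to 16.24 over all libraries and the other side from 10.11 to 14.02. Most of the range in the score therefore came from Gfap, Aqp4, Vim and Cd44.

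**Figure D1:**
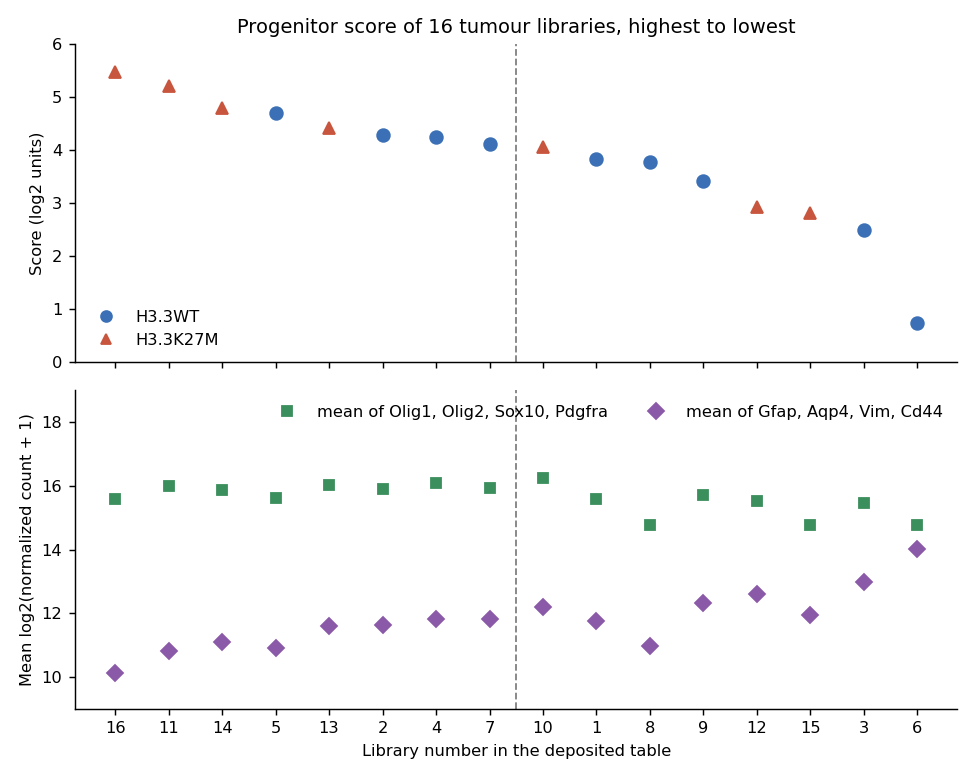
Score of each library (upper panel, log2 units) and the means of its positive and negative gene sets (lower panel, mean log2(normalized count + 1)), with libraries ordered from the highest score to the lowest and the class boundary dashed. The positive set varies between 14.76 and 16.24, the negative set between 10.11 and 14.02, and library 6 stands lowest at 0.75.

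The 8 genes that made the classes are given as a description, as the lowest, median and highest normalized count in the 8 libraries of a class. Pdgfra, the receptor of the growth factor that drives these tumours, had 75901, 143476 and 250718 normalized counts in high-score and 31738, 80067 and 110165 in low-score libraries. Of the high-score libraries, 7 exceeded every low-score library. Olig1 had 38471, 73821 and 107126 in high-score against 19135, 53004 and 125108 in low-score libraries. Library 10, just below the boundary, held the highest Olig1 and Olig2 of all 16, and library 15 the lowest.

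Olig2 had 19025, 30471 and 42696 normalized counts in high-score and 12423, 23516 and 49533 in low-score libraries. Sox10 had 28641, 45564 and 53778 against 26200, 39604 and 60268. In both genes the range of the low-score libraries enclosed that of the high-score libraries.

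Gfap had 1036, 2286 and 9751 normalized counts in high-score and 960, 7819 and 58836 in low-score libraries. Aqp4 had 162, 572 and 1754 against 48.3, 1770 and 4840. Library 6 was highest in both genes, while library 8, of the same class, was lowest in both. Vim had 9610, 16593 and 25416 in high-score and 14374, 19634 and 51076 in low-score libraries, and Cd44 had 535, 1106 and 4805 against 1106, 3686 and 13517. Library 8 held 42845 for Vim and 8064 for Cd44, and library 3 the highest Cd44. The mean log2 level of these 4 genes in library 8 was nevertheless 10.97, below the high-score median of 11.35. Its progenitor side was the lowest of the 16 libraries at 14.76, so low scores were reached in different ways.

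**Figure D2:**
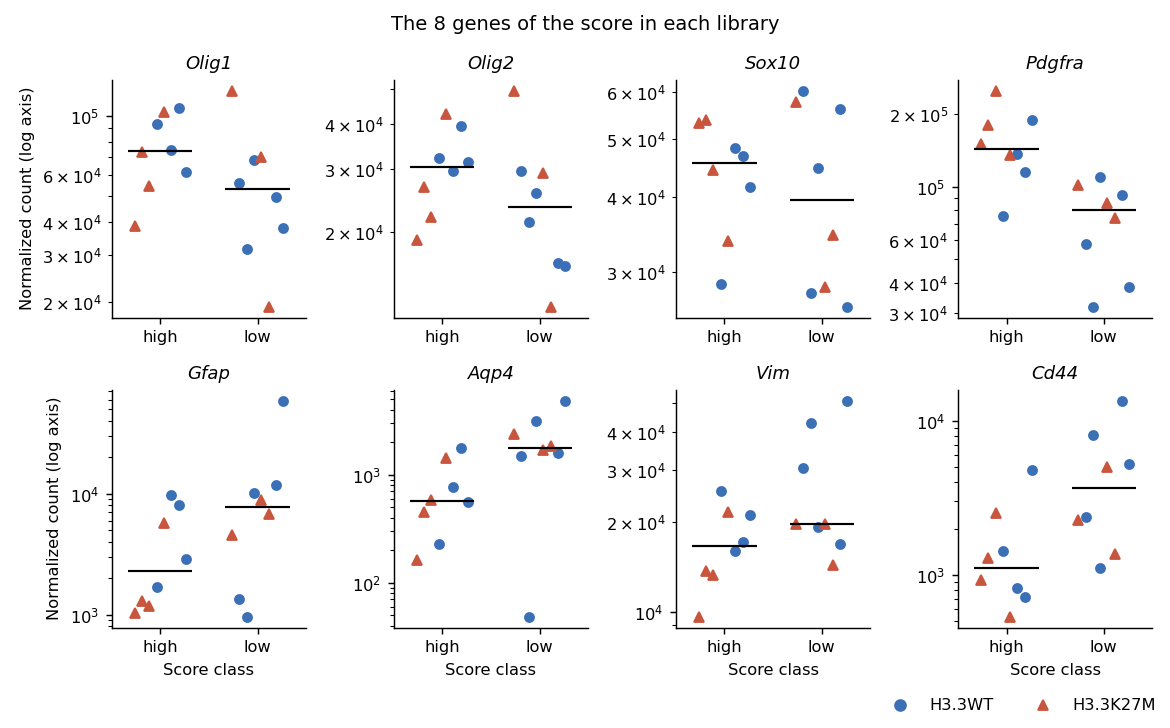
Normalized counts (log axis) of the 8 genes of the score in the high-score and low-score classes, 1 point per library ordered from left to right by falling score, circles H3.3WT, triangles H3.3K27M, bars the class median. The classes overlap in every gene, least in Pdgfra, where 7 of 8 high-score libraries exceed all low-score libraries.

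The score was computed without the H3.3 group, and its ranges in the H3.3 groups overlapped. It averaged 4.24 ± 1.04 (SD, n = 7) in H3.3K27M and 3.51 ± 1.22 (SD, n = 9) in H3.3WT libraries. The difference was 0.73, with a two-sided exact permutation p of 0.235 over 11440 assignments. The progenitor side differed by 0.18 (exact permutation p = 0.460) and the other side by -0.54 (exact permutation p = 0.269). The 3 highest scores were all in H3.3K27M tumours and the 2 lowest both in H3.3WT tumours. The high-score class held 4 H3.3K27M and 4 H3.3WT libraries and the low-score class 3 and 5 (two-sided Fisher's exact test, p = 1). Without library 6 the difference was 0.38 (exact permutation p = 0.404).

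Between the classes, no single gene passed the test across the table. Of 14999 genes other than those of the score, limma on log2(normalized count + 1) with the H3.3 group as a covariate called 0 higher (0.0%) and 0 lower (0.0%) at a Benjamini-Hochberg adjusted p under 0.05, and the smallest adjusted p was 0.328. At an unadjusted p under 0.05, 883 genes (5.89%) lay higher and 718 (4.79%) lower in high-score libraries, or 10.7% in all. On recovered reads, edgeR's quasi-likelihood test also called 0, with 1672 genes (11.1%) at an unadjusted p under 0.05. DESeq2's Wald test called 30 higher (0.2%) and 54 lower (0.36%), with 5.35% higher and 7.27% lower at an unadjusted p under 0.05. Its lower calls include the Y-linked genes Ddx3y and Eif2s3y (adjusted p = 0.00982 for both). With the 4 libraries nearest the boundary left out, limma called 1 gene (0.00667%). The median log2 difference over all genes was 0.01. The counts below are of list members at an unadjusted p under 0.05, to be read against 5.89% and 4.79%. The classes were cut from the same RNA, so these counts describe which genes varied with the score.

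Oligodendrocyte progenitor markers outside the score lay higher in high-score libraries throughout the list. All 30 had a log2 difference above 0, against 51.6% of all genes (48.4% lay below 0), with a median of 0.47. At an unadjusted p under 0.05, 11 of 30 (36.7%) lay higher and 0 lower. The summed level of the list ran from 656843 to 943410 normalized counts in high-score and from 365967 to 777882 in low-score libraries, so the classes overlapped. Within H3.3WT and within H3.3K27M tumours taken separately, 26 of 30 lay higher in both, against 34.1% of all genes. Without libraries 6 and 8 together, 28 of 30 lay above 0 with a median of 0.31 and 9 at the unadjusted threshold, where 4.54% of all genes lay higher. Without library 10 the count of 11 was 20.

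Xylt1 (mm10, chromosome 7, 117380978 to 117667630) encodes the enzyme that starts the sugar chains of proteoglycans. It had 14006, 20915 and 33902 normalized counts (lowest, median, highest) in high-score and 6268, 11940 and 16444 in low-score libraries. All but 1 high-score library exceeded every low-score library. Its log2 difference was 0.87 ± 0.18 (SE), with an adjusted limma p of 0.328. Epn2, an endocytic adaptor, had 17892, 20747 and 26588 against 6548, 12332 and 20102 (0.88 ± 0.23), and 5 high-score libraries exceeded the whole low-score range. Kcnip3, a calcium-binding protein that modulates potassium channels, had 13773, 29482 and 45047 against 9141, 15241 and 27445 (0.88 ± 0.25), with 4 high-score libraries above that range.

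Cntn1, a cell adhesion molecule of axons and oligodendrocyte progenitors, had 45596, 86448 and 155465 normalized counts in high-score and 22884, 46958 and 64552 in low-score libraries (log2 difference 0.84 ± 0.25). The proteoglycan NG2 gene Cspg4, a defining marker of progenitors, had 26853, 41539 and 56296 against 18341, 30875 and 34361 (0.48 ± 0.18). Ptprz1, a receptor phosphatase of glial progenitors, had 48640, 62485 and 97581 against 25183, 45019 and 65953 (0.53 ± 0.18). In these genes the low-score range reached into the high-score range, and library 8 was the lowest in both Cntn1 and Ptprz1. Sox6, which holds progenitors back from maturing, had 7599, 14643 and 19200 against 4841, 9201 and 12252 (0.52 ± 0.17).

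Among 26 transcription factors of the oligodendrocyte lineage outside the score, 16 lay higher and 10 lower, with a median of 0.17, and 5 higher and 1 lower passed the unadjusted threshold. Nfix, a nuclear factor of glial differentiation, had 10089, 11991 and 17320 normalized counts in high-score and 4978, 7342 and 13874 in low-score libraries (log2 difference 0.60 ± 0.20). Zeb1 (0.59 ± 0.21), Myt1 (0.37 ± 0.14) and Sox5 (0.48 ± 0.19) lay in the same direction. Sox9, which glial precursors and astrocytes express, was the 1 factor lower at that threshold, with 160, 528 and 1622 against 390, 1002 and 3561 (-1.14 ± 0.48). Zeb1, better known as a mesenchymal factor, thus lay on the progenitor side of this split.

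Genes of myelinating oligodendrocytes showed no shared direction, with 12 of 25 higher, 13 lower and a median of -0.01 (0.22 within H3.3WT and -0.29 within H3.3K27M tumours). With the continuous score 9 lay lower at the unadjusted threshold, and 5 without library 6. Mbp, the myelin basic protein gene, had 3135, 4841 and 40096 normalized counts in high-score and 3816, 9548 and 122652 in low-score libraries (log2 difference -0.71 ± 0.68). Its highest value was in library 6. The difference was -0.05 within H3.3WT and -1.56 within H3.3K27M tumours. Cldn11, the tight junction protein of myelin, lay lower, with 1146, 3387 and 7149 against 3806, 7144 and 12208 (-0.94 ± 0.32). Rnf43 (1.07 ± 0.34), Itpr2 (0.67 ± 0.24) and Gjc3 (0.67 ± 0.28), the last of which encodes a glial gap junction protein, lay higher.

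The astrocyte markers outside the score divided between the classes. Of 34, 16 lay higher and 18 lower (median -0.12), and 2 higher and 1 lower passed the unadjusted threshold. Sparcl1, a secreted matrix protein, had 21568, 44389 and 55448 normalized counts in high-score and 5401, 21846 and 64883 in low-score libraries (log2 difference 0.93 ± 0.41). Cst3, cystatin C, had 8826, 12254 and 25318 against 8882, 25660 and 34099 (-0.60 ± 0.26), and no high-score library reached the low-score median.

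Defining astrocyte genes gave no clear order. Aldh1l1, the folate enzyme used to mark astrocytes, had 18.6, 70.1 and 462 normalized counts in high-score and 23.4, 375 and 1596 in low-score libraries (log2 difference -1.11 ± 0.90). The glutamate transporter gene Slc1a3 had 6595, 10534 and 24688 against 5098, 7617 and 27705 (0.25 ± 0.32). Aldoc, an astrocyte glycolytic enzyme, had 6320, 24695 and 35223 against 5222, 11248 and 35115 (0.76 ± 0.40), and the gap junction gene Gja1 had 175, 471 and 1113 against 379, 421 and 4988 (-0.39 ± 0.48). Library 6 held the highest Slc1a3 and Gja1, and without it and library 8 the Gja1 difference was -0.09.

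Genes of reactive astrocytes, the state that astrocytes enter after injury or inflammation, lay lower in high-score libraries. Of 32, 25 lay lower and 7 higher, with a median of -0.53. At the unadjusted threshold 10 (31.2%) lay lower and 0 higher, and 20 lay lower within both H3.3 groups, against 31.3% of all genes. Without libraries 6 and 8, 8 lay lower at that threshold, against 3.5% of all genes. The summed level of the list ran from 37940.9 to 67270 normalized counts in high-score and from 41578.6 to 130028 in low-score libraries, and leaving out library 12 took the count to 6.

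Timp1 (mm10, chromosome X, 20870165 to 20874737), an inhibitor of matrix metalloproteinases, had 37.2, 169 and 1259 normalized counts (lowest, median, highest) in high-score and 439, 1078 and 2983 in low-score libraries. Its log2 difference was -2.17 ± 0.54 (SE), with an adjusted limma p of 0.328. All but 1 high-score library lay below the low-score median. Ptx3, a secreted pattern recognition protein, had 2.76, 28.6 and 37.4 against 22.7, 117 and 4184 (-3.07 ± 0.89), and 6 low-score libraries exceeded the whole high-score range. Lcn2, the iron-binding lipocalin secreted in inflammation, had 36.1, 129 and 409 against 168, 414 and 2650 (-2.15 ± 0.69). Clcf1, a cytokine of the ciliary neurotrophic factor receptor, had 29.1, 75.5 and 139 against 100.8, 317 and 699 (-1.81 ± 0.46), and no high-score library reached the low-score median.

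**Figure D3:**
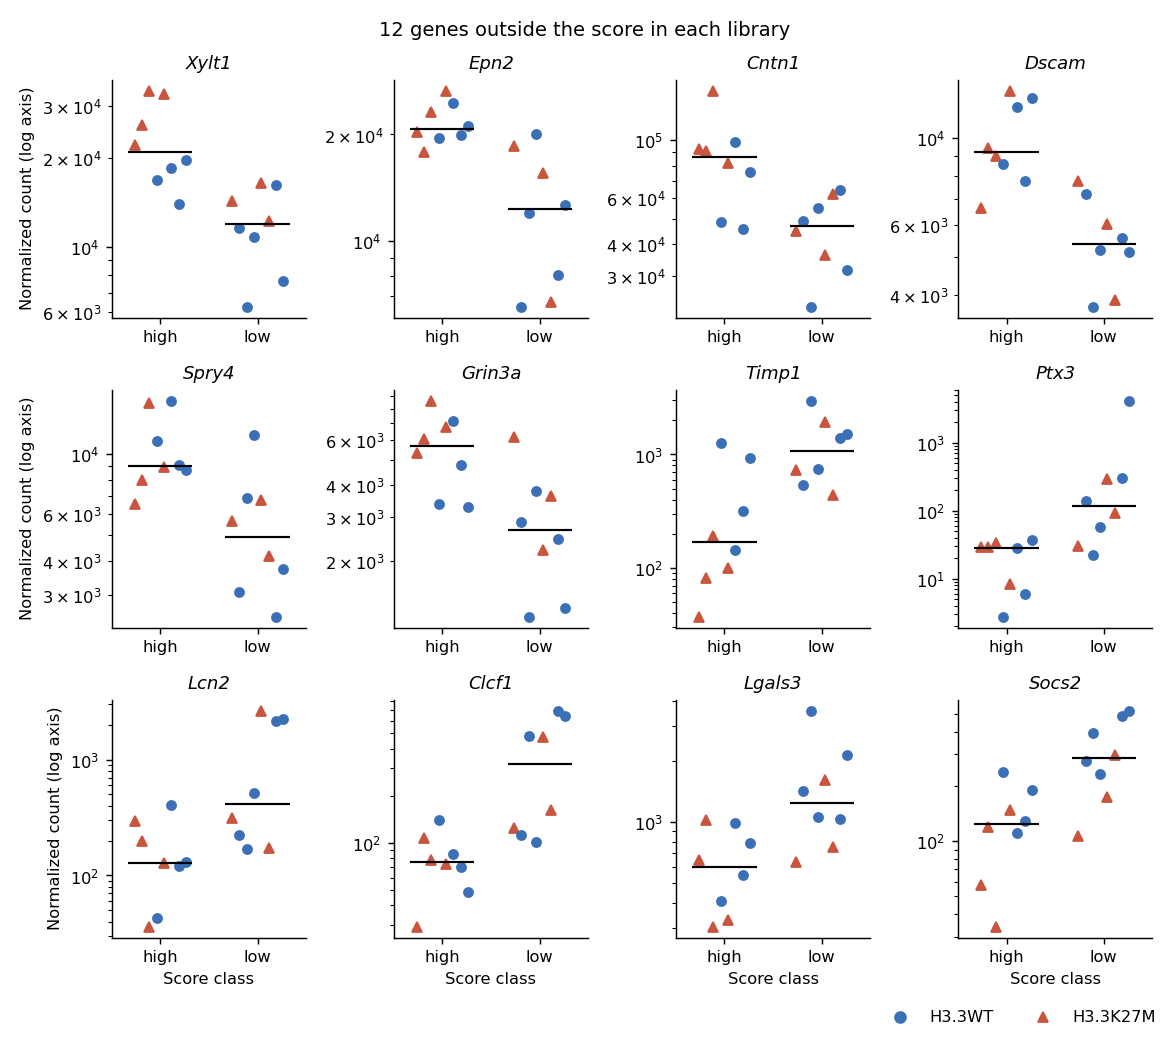
Normalized counts (log axis) of 12 genes outside the score, 1 point per library ordered from left to right by falling score, circles H3.3WT, triangles H3.3K27M, bars the class median. Xylt1, Epn2, Cntn1, Dscam, Spry4 and Grin3a lie higher and the other genes lower in high-score libraries, and the classes overlap in each gene shown.

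Promoter windows from RefSeq (GRCm38.p6, 250 bases before to 50 after each annotated start) were searched on both strands for TGANTCA (AP-1), TTCNNNGAA (STAT), CAGCTG (E-box) and AACAAT (SOX), letters that each factor family is known to bind. TGANTCA stood in 6 of 27 reactive astrocyte genes with a window (22.2%) and in 2 of 22 progenitor markers, against 6.45% of all tested genes and 7.81% of all windows. CAGCTG stood in 8 of 22 progenitor markers (36.4%) and 7 of 27 reactive astrocyte genes, against 18.6% and 16.3%. It also stood in 7 of 21 JAK and STAT3 pathway genes (33.3%) and in 3 of 32 mesenchymal glioma genes. Over all genes at the unadjusted threshold its share was 19.4% of those higher and 18.5% of those lower, close to the background. Over all genes at the unadjusted threshold the shares for TGANTCA were 7.03% of those higher and 7.54% of those lower, close to the background, and AACAAT stood in 6.41% and 7.54% against 7.14%. TTCNNNGAA stood in 3 of 27 and 3 of 22 list members, against 8.19% of tested genes. A match is a description of letters, not a bound site.

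The stretches below show these letters in capitals in Gfap, which set the low-score side, in Steap4 and Gbp2, reactive astrocyte genes, and in the progenitor marker Kcnip3, which holds both TGACTCA and TTCTGGGAA although it lay on the other side of the split. They were chosen after the values were seen.
Gfap: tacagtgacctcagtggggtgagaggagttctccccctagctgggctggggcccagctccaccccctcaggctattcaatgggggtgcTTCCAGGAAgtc
Steap4: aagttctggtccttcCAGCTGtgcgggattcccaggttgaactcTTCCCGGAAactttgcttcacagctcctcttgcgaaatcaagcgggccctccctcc
Gbp2: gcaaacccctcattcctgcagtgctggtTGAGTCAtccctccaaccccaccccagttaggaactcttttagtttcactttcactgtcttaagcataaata
Kcnip3: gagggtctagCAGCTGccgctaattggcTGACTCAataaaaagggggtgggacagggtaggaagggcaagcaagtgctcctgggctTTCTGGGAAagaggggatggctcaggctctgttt
They lie at chr11:102897191-102897290 (minus strand), chr5:7960312-7960411 (plus strand), chr3:142620533-142620632 (plus strand) and chr2:127522125-127522244 (minus strand), in that order. Steap4, a metalloreductase, had 7.59, 28.1 and 168 normalized counts in high-score and 19.9, 108 and 428 in low-score libraries (log2 difference -1.62 ± 0.64), and Gbp2, an interferon-induced GTPase, had 164, 239 and 1447 against 93.8, 773 and 2746 (-1.17 ± 0.66).

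Genes of the mesenchymal glioma state also lay lower on balance, with 29 of 38 lower, 9 higher and a median of -0.29. At the unadjusted threshold 6 (15.8%) lay lower and 2 higher. Lgals3, galectin 3, had 303, 600 and 1024 normalized counts in high-score and 633, 1251 and 3574 in low-score libraries (log2 difference -1.14 ± 0.33), and no high-score library reached the low-score median. S100a6, a calcium-binding protein, had 202, 539 and 1267 against 409, 1827 and 5109 (-1.27 ± 0.42), and the tetraspanin gene Cd63 had 2390, 4756 and 6856 against 3674, 7875 and 17193 (-0.64 ± 0.23). Lamc1, a laminin chain on the same list, lay the other way, with 6431, 8052 and 10201 against 2814, 4791 and 7988 (0.64 ± 0.19). The count of 6 was 3 without any 1 of libraries 2, 8 and 12 and 13 without library 9. Mesenchymal transcription factors lay lower in 17 of 26, of which Batf3 (-0.96 ± 0.32) passed the unadjusted threshold, and targets of YAP and TAZ were split 11 to 10 (median 0.06) with 1 higher at that threshold. Within H3.3WT tumours 1 of 38 mesenchymal glioma genes lay lower at the threshold, where 1.71% of all genes did. Within H3.3K27M tumours 6 did, where 2.17% of all genes did. The difference between these counts was not tested.

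In cytokine signalling, genes of the JAK and STAT3 pathway lay higher in 10 and lower in 14 of 24 (median -0.09). Socs2, a feedback inhibitor of STAT signalling, had 33.9, 124 and 241 normalized counts in high-score and 107, 286 and 521 in low-score libraries (log2 difference -1.19 ± 0.33), and no high-score library reached the low-score median. Stat5b lay higher, with 1702, 1936 and 2186 against 938, 1438 and 1851 (0.45 ± 0.14). Of 26 NF-kB and cytokine genes 22 lay lower (median -0.24), yet 0 passed the unadjusted threshold and the smallest adjusted limma p in the list was 0.567.

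Feedback genes of the MAPK pathway, which growth factor receptors switch on, lay higher in 15 of 19 (median 0.26), and 6 (31.6%) passed the unadjusted threshold in that direction with 0 in the other. Spry4, an inhibitor of receptor tyrosine kinase signalling, had 6497, 9004 and 15771 normalized counts in high-score and 2487, 4898 and 11733 in low-score libraries (log2 difference 1.02 ± 0.28). Spred2, of the same family of inhibitors, had 3144, 4275 and 5441 against 1975, 3320 and 3996 (0.38 ± 0.13). Every high-score library held more Spry4 than the low-score median. Ccnd1, cyclin D1, had 37430, 51736 and 96075 against 16563, 32308 and 51548 (0.74 ± 0.27), and Egr1 had 5418, 16289 and 91342 against 4272, 10297 and 13418 (1.25 ± 0.42). The list's count was 5 or 6 with any 1 library left out, 4 without libraries 6 and 8 (median 0.11), 3 with the score genes scaled, and 4 with the continuous score (2 without library 6). Library 16, which had the highest score, had the lowest mean log2 level of the list among the 16 libraries (10.97).

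Egr1 is also an immediate early gene, and of 24 such genes 19 lay higher (median 0.33) with 1 higher and 1 lower at the unadjusted threshold. BMP signalling and Id genes lay higher in 13 and lower in 9 of 22. Id1, an inhibitor of basic helix-loop-helix factors, had 212, 452 and 815 normalized counts in high-score and 492, 757 and 2009 in low-score libraries (log2 difference -1.04 ± 0.33). Smad6, an inhibitor of BMP signals, lay in the same direction (-0.84 ± 0.36). In the Notch pathway 16 of 23 lay higher (median 0.14), and the ligand gene Jag1 had 2375, 3449 and 6471 against 979, 2549 and 3261 (0.66 ± 0.23).

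Extracellular matrix and collagen genes lay higher in high-score libraries in 25 of 33, with a median of 0.49 and 6 (18.2%) higher at the unadjusted threshold. Col9a3, a collagen chain that oligodendrocyte progenitors express, had 2163, 8362 and 14821 normalized counts in high-score and 1776, 3001 and 8267 in low-score libraries (log2 difference 1.16 ± 0.42). Lama4, a laminin chain of vessel walls, had 3853, 5096 and 6654 against 2330, 3957 and 5072 (0.40 ± 0.17). The collagen cross-linking enzyme gene Lox (1.44 ± 0.64) and the proteoglycan gene Lum (1.19 ± 0.47) lay higher as well. Pericyte, smooth muscle and fibroblast markers lay higher in 16 of 22 (median 0.35), and their summed level ran from 15834 to 42664 in high-score and from 17946 to 52705 in low-score libraries. Their part in the matrix genes was not tested. The count of 6 was 2 or 3 without any 1 of libraries 6, 7, 9, 12 and 14, and 10 without library 8. It was 3 with the trend on exon length removed, 2 with the neuron level as a covariate and 1 with the score genes scaled. Within H3.3WT tumours it was 6 and within H3.3K27M tumours 1, where 2.62% and 3.72% of all genes lay higher.

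Hypoxia and glycolysis genes lay higher in 24 of 26 (median 0.43), with 5 (19.2%) at the unadjusted threshold. Vegfa, the vessel growth factor that low oxygen induces, had 6235, 20558 and 55654 normalized counts in high-score and 3067, 7739 and 32566 in low-score libraries (log2 difference 1.2 ± 0.47), and Egln1, the oxygen-sensing hydroxylase, 5508, 7265 and 13458 against 4833, 5846 and 8379 (0.42 ± 0.18). The list differed between the H3.3 groups in its counts, with 14 members higher at the unadjusted threshold within H3.3K27M and 0 within H3.3WT tumours. Of all genes, 3.72% and 2.62% lay higher in these fits. The difference between the counts of 14 and 0 was not tested. With 1 library left out its count ran from 0, without library 2 or 15, to 10, without library 7. It was 3 or fewer without any 1 of libraries 3, 8 to 13 and 16, and 8 or more without library 4 or 6, so single libraries decided it.

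Of 27 G1/S genes of the cell cycle 19 lay higher (median 0.13) and of 30 G2/M genes 23 (median 0.12), and 0 of either list passed the unadjusted threshold in either direction. The G2/M median was -0.02 within H3.3WT and 0.32 within H3.3K27M tumours. In the latter, 4 members lay higher at that threshold, against 3.72% of all genes. Library 3 was the lowest in both lists. Neural stem and progenitor genes were split 9 to 9 (median -0.03), with 1 higher and 0 lower at the unadjusted threshold. Nr2e1, a nuclear receptor of neural stem cells, had 0.836, 10.0 and 480 normalized counts in high-score and 8.93, 323 and 572 in low-score libraries. Its values fell into a low and a high set within each class, with a log2 difference of -2.43 ± 1.16. The Nr2e1 difference was -0.31 within H3.3WT and -5.19 within H3.3K27M tumours, though the interaction test given below called 0 genes.

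Genes through which progenitors receive neuronal signals lay higher, with 24 of 29 receptor and channel genes above 0, a median of 0.35, and 8 (27.6%) higher and 1 lower at the unadjusted threshold. Dscam, a cell adhesion molecule, had 6637, 9235 and 13225 normalized counts in high-score and 3725, 5393 and 7767 in low-score libraries (log2 difference 0.84 ± 0.18, limma adjusted p = 0.328). The NMDA receptor subunit gene Grin3a had 3282, 5693 and 8597 against 1210, 2660 and 6166 (0.97 ± 0.26). Nlgn1, neuroligin 1, had 2589, 3423 and 4341 against 1142, 2393 and 3109 (0.54 ± 0.17). All high-score libraries exceeded the low-score median in each of these genes, whereas Cacng5, an AMPA receptor auxiliary subunit, lay lower (-1.33 ± 0.48). The Cacng5 difference was -0.31 within H3.3WT and -2.65 within H3.3K27M tumours. Without libraries 6 and 8 the 8 genes became 3, without library 7 they became 5 and without library 16 they became 14. Within H3.3WT tumours 10 lay higher and within H3.3K27M tumours 2, where 2.62% and 3.72% of all genes did. The difference between these counts was not tested. With the continuous score 3 lay higher and 3 lower, and 2 and 2 without library 6, so the direction depends on the form of the score.

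Neuron markers lay the other way, with 20 of 24 lower in high-score libraries (median -0.77) and 19 lower within both H3.3 groups, though 0 passed the unadjusted threshold. Their summed level ran from 14556 to 47006 normalized counts in high-score and from 17835 to 132232 in low-score libraries. The mean log2 level averaged 8.30 ± 1.16 (SD, n = 8) and 9.04 ± 1.36 (SD, n = 8), with an exact permutation p of 0.263. Camk2a, a kinase of excitatory neurons, had 13.7, 24.4 and 142 in high-score and 11.3, 144 and 13577 in low-score libraries, the last in library 6. Meg3 had 159, 4756 and 9500 against 4155, 6629 and 19052 (log2 difference -1.17 ± 0.59), and Grin2a lay lower (-2.06 ± 1.06), while Gabrb2 lay higher (0.90 ± 0.45). Grin2a had few reads, with 0, 5.80 and 58.3 normalized counts in high-score and 1.73, 32.1 and 268 in low-score libraries, the last in library 6. With the neuron level as a further covariate, 10 progenitor markers lay higher and 8 reactive astrocyte genes lower at the unadjusted threshold, against 11 and 10. The share of all genes in that fit is not given here, and the part of the neuron level in these lists was not tested. Neuronal progenitor genes lay lower in 9 of 13 (median -0.28).

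Markers of immune cells showed no shared direction. Microglia and macrophage markers lay higher in 11 and lower in 18 of 29 (median -0.08), and their mean log2 level averaged 9.89 and 9.99 (exact permutation p = 0.619). Tmem119, a microglia gene, had 496, 733 and 1145 normalized counts in high-score and 303, 582 and 862 in low-score libraries (log2 difference 0.43 ± 0.25). Spi1, the myeloid transcription factor PU.1, had 230, 441 and 634 against 370, 661 and 898 (-0.52 ± 0.22). Tmem119 had the highest log2 difference of the 29 markers, and Spi1 was the 1 marker that passed the unadjusted threshold. Neutrophil and monocyte markers lay higher in 4 and lower in 5 of 9, with Cxcr2 lower (-1.57 ± 0.66). Cxcr2 had few reads, with 0.836, 7.96 and 27.2 normalized counts against 4.11, 21.5 and 190, the last in library 6. T and NK cell markers lay higher in 7 of 11, with Klrb1c, an NK receptor, at 22.8, 50.2 and 63.4 against 12.3, 17.1 and 45.1 (1.11 ± 0.33).

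Endothelial markers lay higher in 14 of 22 (median 0.20), with Pecam1 at 0.47 ± 0.29 on the log2 scale and Ly6c1 at -0.88 ± 0.38. The pericyte gene Abcc9 had 1050, 1794 and 2619 normalized counts in high-score and 357, 574 and 2195 in low-score libraries (log2 difference 1.02 ± 0.38). Rgs5, another pericyte gene, lay in the same direction (0.66 ± 0.36), and the smooth muscle gene Tagln in the other (-1.38 ± 0.61). Ependymal and choroid plexus markers were split 5 to 6, with Foxj1 at -0.41 ± 0.45. The 5 tested genes of the haemoglobin list, which also holds Alas2, lay higher with a median of 0.43 and 0 at the unadjusted threshold. Their median was 1.48 within H3.3WT and -0.93 within H3.3K27M tumours, and 1 of 5 lay higher in both groups. The level of this list averaged 9.61 and 9.39 on the log2 scale (exact permutation p = 0.897).

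Of 23 MHC class I genes 18 lay below 0 (median -0.17), with 2 (8.7%) lower at the unadjusted threshold. Of 35 interferon response genes 30 lay below 0 (median -0.27), against 48.4% of all genes, but the 1 at the threshold (2.86%) is a smaller share than the 4.79% of all genes. Without libraries 6 and 8, 33 of 35 interferon genes lay below 0 (median -0.64), with 4 lower at the threshold. In that fit 22 of 23 MHC class I genes lay below 0 (median -0.40) with 2 at the threshold, where 3.5% of all genes lay lower. With the continuous score 1 interferon gene lay lower, and 5 without library 6, against 5.85% and 4.73% of all genes. The mean log2 levels of both lists overlapped between the classes, averaging 11.75 and 11.84 for MHC class I and 9.49 and 9.76 for the interferon response. Psme2, a proteasome activator subunit, had 542, 710 and 978 normalized counts in high-score and 763, 1136 and 1529 in low-score libraries (log2 difference -0.62 ± 0.18), and 6 low-score libraries exceeded the whole high-score range. Psme1 had 1650, 2332 and 3511 against 2140, 3272 and 3754 (-0.40 ± 0.16), and Bst2, which tethers viruses to the cell surface, lay in the same direction (-0.65 ± 0.30).

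**Figure D4:**
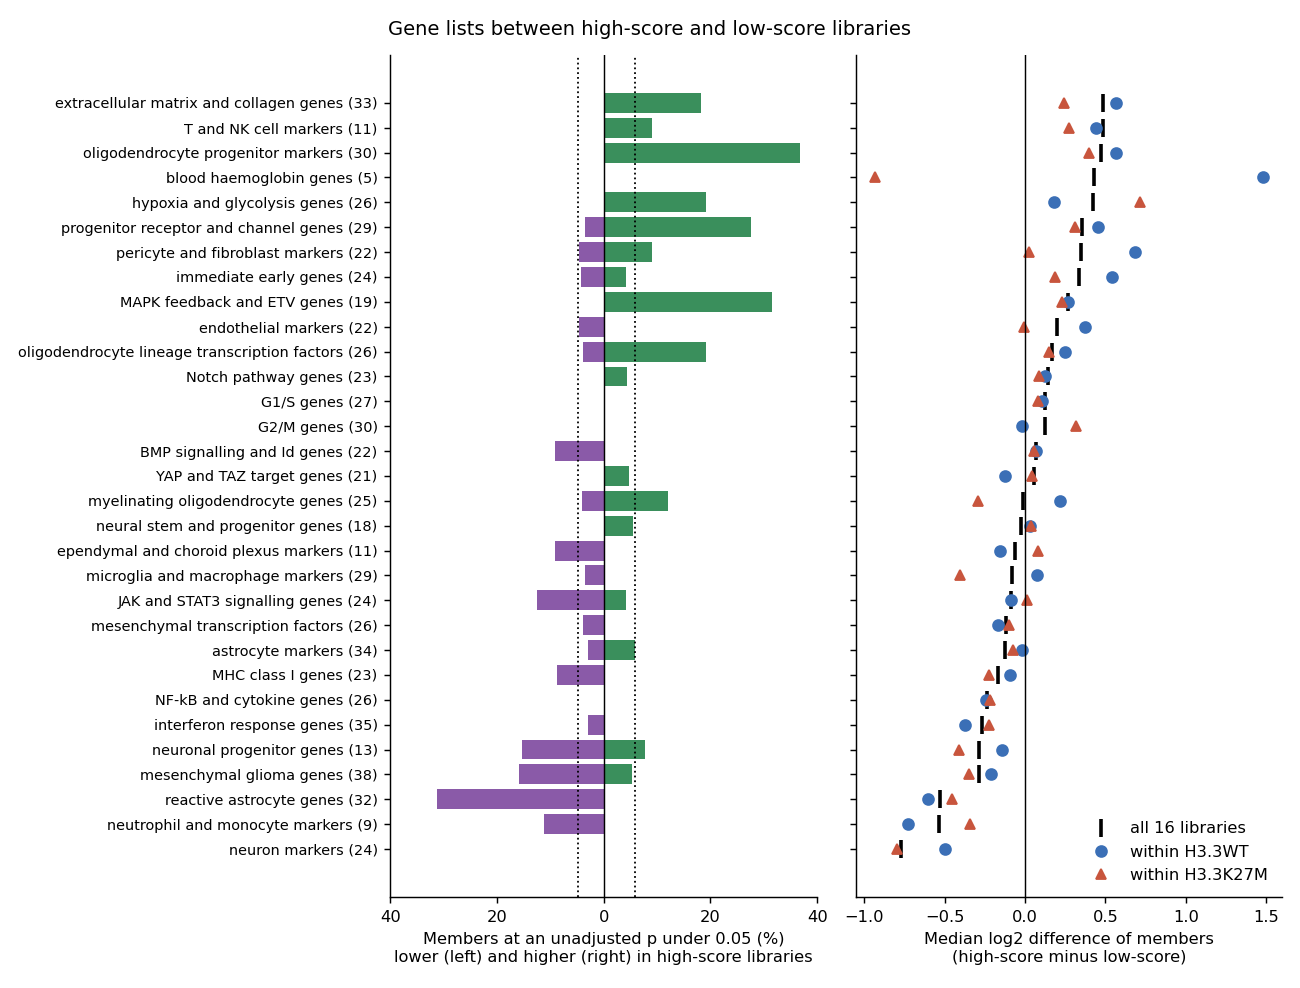
Left, share of each list's tested members (number in brackets) that lay higher (green) or lower (purple) in high-score libraries at an unadjusted p under 0.05, with dotted lines at the shares over all genes, 5.89% and 4.79%. Right, median log2 difference of each list over all libraries and within each H3.3 group; progenitor markers reach 36.7% higher and reactive astrocyte genes 31.2% lower.

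The 8 genes of the tumour model were split 4 to 4, with 0 at the unadjusted threshold. Pdgfa had 10387, 23602 and 44796 normalized counts in high-score and 12238, 26607 and 54315 in low-score libraries (log2 difference -0.09 ± 0.30), although its receptor defined the score. Pdgfb (0.35 ± 0.37), Pdgfc (-0.07 ± 0.23), Pdgfd (0.20 ± 0.37) and Pdgfrb (0.43 ± 0.36) overlapped as well. Trp53, which carries the floxed alleles, had 649, 839 and 1457 against 797, 1369 and 2520 (-0.46 ± 0.22, limma adjusted p = 0.468), and 4 low-score libraries exceeded the whole high-score range. The H3.3 genes H3f3a (0.08 ± 0.18) and H3f3b (-0.09 ± 0.23) showed no order, and gene-level values do not separate mutant from unmutated H3.3.

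Single genes with the smallest p-values were mostly outside the lists and were named after their values were seen. Tlr5, the flagellin receptor, had 372, 976 and 1403 normalized counts in high-score and 88.3, 249 and 498 in low-score libraries (log2 difference 1.64 ± 0.30), and 6 of 8 high-score libraries exceeded the low-score range. Its unadjusted limma p of 4.19e-05 was the smallest, with an adjusted p of 0.328, and without library 9 the adjusted limma p was 0.0195. Pde4dip, a centrosomal and Golgi scaffold, had 5818, 8172 and 9188 against 2682, 4559 and 6572 (0.81 ± 0.18). Igfbp5, which binds insulin-like growth factors, had 6628, 8858 and 34309 against 750, 1315 and 12160 (2.29 ± 0.54). All high-score libraries exceeded 6 of 8 low-score libraries in Igfbp5, and libraries 1 and 10 were the exceptions.

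On the lower side, Crym, a thyroid hormone binding protein, had 0, 7.36 and 15.3 normalized counts in high-score and 11.4, 38.9 and 502 in low-score libraries, and 7 low-score libraries exceeded the whole high-score range (log2 difference -3.02 ± 0.73). The kinase gene Nek10 had 2.17, 9.92 and 38.7 against 13, 48.8 and 275 (-2.32 ± 0.54). Dnah10, a dynein chain of motile cilia, had 17, 46.7 and 82.4 against 62.7, 117 and 354 (-1.66 ± 0.36), and Npl had 669, 869 and 1429 against 1043, 1751 and 2361 (-0.76 ± 0.17). Several of these genes had few reads in high-score libraries, where 3 reads stand for 2.42 normalized counts in library 16.

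The classes did not overlap at all in 6 genes, 4 higher (0.0267% of those tested) and 2 lower (0.0133%) in high-score libraries. Tbc1d5, a regulator of endosome traffic, had 1982, 2545 and 3292 normalized counts in high-score and 970, 1418 and 1829 in low-score libraries (log2 difference 0.78 ± 0.15). Srr, serine racemase, had 1248, 1395 and 1627 against 929, 1088 and 1247 (0.40 ± 0.11). Sdk1 (0.95 ± 0.22), a cell adhesion molecule, and Pigs (0.52 ± 0.13), of the GPI anchor transamidase, were the other higher genes, and Mss51 (-1.07 ± 0.27) and Mettl6 (-0.35 ± 0.11) the lower ones. Their adjusted limma p was 0.334 for Mettl6 and 0.328 for the other 5. DESeq2 called 5 of the 6, with adjusted p = 0.0044 for Tbc1d5, adjusted p = 0.0398 for Srr, adjusted p = 0.0143 for Sdk1 and adjusted p = 0.0169 for Mss51 and Mettl6. It also called Tlr5 (adjusted p = 0.00282), Xylt1 (adjusted p = 0.00982), Timp1 (adjusted p = 0.0143) and Dscam (adjusted p = 0.013). The 6 genes were picked for a lack of overlap in these same libraries, so the calls among them are not independent support.

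The class difference had the same sign within H3.3WT and within H3.3K27M tumours for 65.4% of genes. A test of whether it differed between the groups called 0 genes (limma interaction, Benjamini-Hochberg), with 161 (1.07%) at an unadjusted p under 0.05. Within H3.3WT tumours alone 10 progenitor markers lay higher at the unadjusted threshold, where 2.62% of all genes did. Within H3.3K27M tumours 4 did, where 3.72% of all genes did. Reactive astrocyte genes lay lower in 5 members in each group, against 1.71% and 2.17% of all genes.

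When the score itself replaced the classes, 0 genes were called higher and 18 (0.12%) lower with rising score, among them Crym (limma adjusted p = 0.00549), Ptx3 (adjusted p = 0.0118) and Camk2a (adjusted p = 0.0219). Without library 6, whose score was the lowest by 1.74 log2 units, 0 genes were called in either direction. At the unadjusted threshold, 17 of 24 neuron markers lay lower with rising score, and 8 without library 6, against 5.85% and 4.73% of all genes. Progenitor markers that lay higher with rising score numbered 15 with it and 5 without it, and hypoxia genes 0 and 15, against 3.97% and 5.49% of all genes.

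The low-score libraries were low in different ways. Library 6 had the highest mean log2 level of the 16 libraries for astrocyte markers (12.09), neuron markers (11.35), myelin genes (11.55) and the haemoglobin list (15.37). Library 8 had the highest for mesenchymal glioma genes and the lowest for progenitor markers (12.70), and it was also the shallowest library. Library 3 had the highest level of interferon response genes (11.26), beside 10.41 for reactive astrocyte genes, and the lowest of G1/S genes (9.01). Library 10 had 14.28 for progenitor markers, above the high-score mean of 14.07. Among high-score libraries, library 16 was lowest of all in astrocyte markers (10.05), myelin genes (8.73) and reactive astrocyte genes (8.14).

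**Figure D5:**
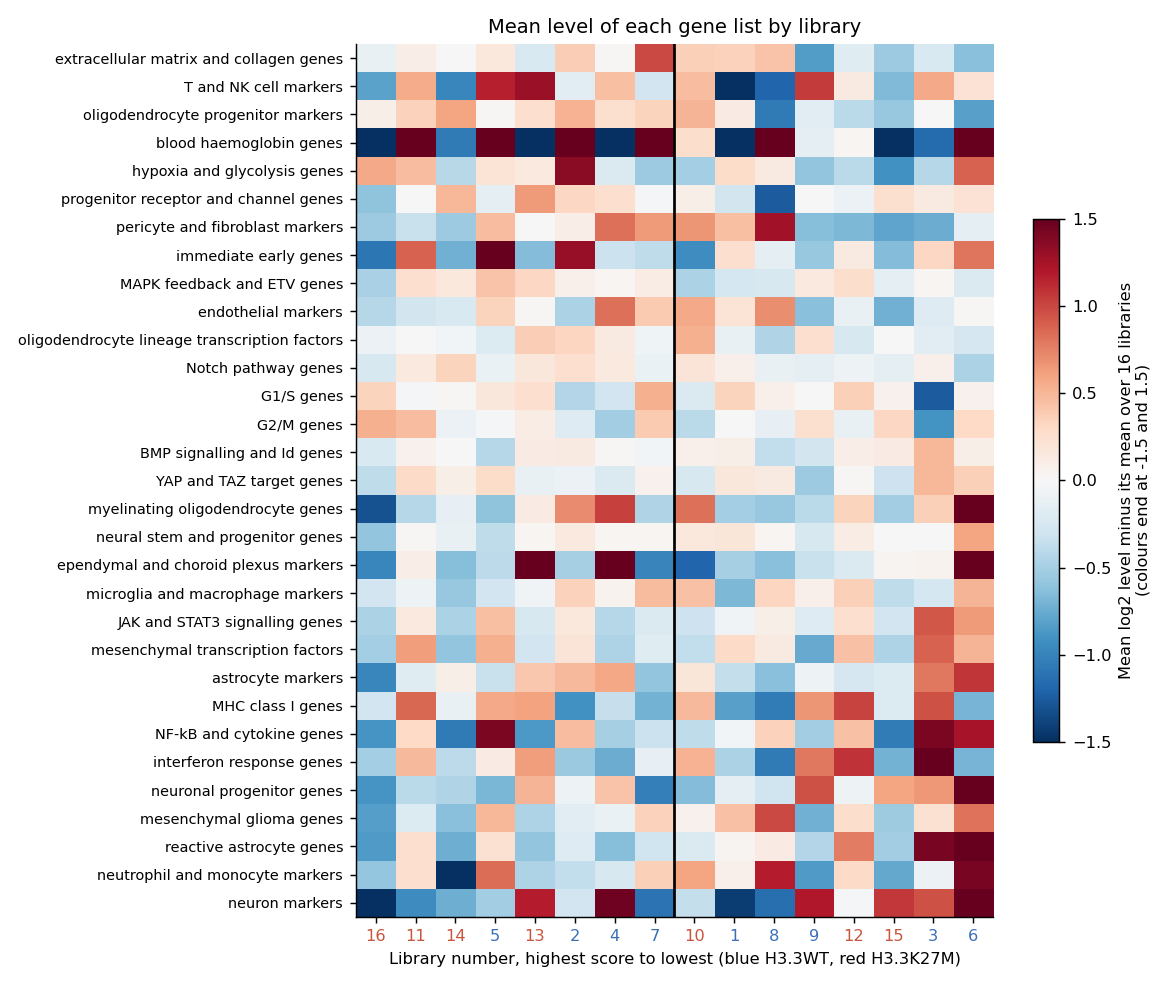
Mean log2 level of each list in each library minus its mean over the 16 libraries, libraries ordered from the highest score to the lowest and the class boundary drawn, with colours ending at -1.5 and 1.5. Reactive astrocyte genes are highest in libraries 3 and 6, progenitor markers lowest in libraries 8 and 6, and neuron markers highest in library 6.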

How the data were processed

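RNA-seq of 16 tumour libraries was given as 1 table of normalized read counts, deposited as a linear signal per gene and library. Per the submitters' processing notes, STAR 2.7, HTSeq, DESeq2 and mm10 were used, while roles, strand setting and annotation were not given in the sources used here. Each deposited value was a whole multiple of 1 read's worth (100% within 0.01 reads), so reads were recovered. Of 23563 lines, 208 with a repeated ID were removed, leaving 23355 genes, and 23322 matched a name in the reference.

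Genes that reached 10 normalized counts in 7 or more libraries were tested with limma 3.58.1 in R 4.3.3 on log2(value + 1), with class and H3.3 group as terms and Benjamini-Hochberg adjustment at 0.05. The deposited table held no counts as such, so edgeR 4.0.16 and DESeq2 1.42.0 on recovered reads were alternatives. Fold changes of low genes are understated on this scale. Exact permutation tests and Fisher's exact test compared the score between groups. Motif shares count a gene once if any of its windows matched.

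Named genes were the members with the smallest p in each list (at most 4), all genes of the model and of the score, defining markers, and up to 12 genes in each direction past the threshold, of which there were 0. Genes with the smallest p over the table, those without overlap, Sox6, Sox9, Sept8, Steap4 and Gbp2 were named after their values were seen, and some genes that the rule names are not reported here. The members and lists were chosen with earlier results of these data known. Alternatives changed the scaling, test, pseudocount, filter, covariates, libraries, score and split; the continuous score without library 6 was added after seeing the data. The fit across genes was tested on simulated data.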

Additional observations from a re-analysis of the deposited data

Results flagged for a closer look

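Among 268 sets of 8 libraries (a gene or list in a class), 16 had a highest or lowest library whose gap to the next was above Dixon's critical share of the set's range; chance gives such a gap in about 1 in 20 sets. Values are on the log2 scale. In the low-score class, library 8 was far below the others in Nlgn1 (10.16, next 11.16), Spred2 (10.95), Ptprz1 (14.62), Sdk1 (7.82), Aqp4 (5.62, next 10.53) and the mean of the receptor and channel genes (9.61), and far above them in Mettl6 (10.47). Library 6 stood above the others in Gja1 (12.28), Foxj1 (10.72) and the mean of the ependymal and choroid plexus markers (7.70). Library 10 was highest in Sept8 (14.19), and library 3 lowest in the mean of the G1/S genes (9.01).

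In the high-score class, library 16 was far below the others in Meg3 (7.32, next 11.12) and in the mean of the MAPK feedback genes (10.97). Library 14 was lowest in Spi1 (7.85), and library 2 highest in Igfbp5 (15.07).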

How the results depend on the processing

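Of 93 named genes, 84 kept their direction under every alternative they were tested in (35 for 83 genes and 34 for 10 that did not reach a mean of 100 normalized counts). Many of them were named for a small p or a lack of overlap in these same libraries. A kept direction is therefore not independent support. DESeq2 called 30 genes higher and 54 lower and put 1091 lower at an unadjusted p under 0.05. The 6 against 6 split called 1 higher, Igfbp5, and the continuous score 18 lower. With 1 library left out, 0 to 1 genes were called higher and 0 lower, 624 to 1195 lay higher and 469 to 900 lower at the unadjusted threshold, and the interaction called 0. Within H3.3WT those counts were 393 and 257, and within H3.3K27M 558 and 326. Progenitor markers at that threshold numbered 10 to 20 with 1 library left out, 4 within H3.3K27M, 18 in the 6 against 6 split and 5 with the continuous score without library 6. Reactive astrocyte genes numbered 6 to 12 with 1 library left out and 5 within either group or in the 6 against 6 split. The score difference between H3.3 groups ran from 0.38 to 0.97.

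These log2 differences changed sign, and the cause was not tested. With 1 library left out, Pdgfa ran from -0.263 to 0.140, Pdgfc from -0.140 to 0.0765, Pdgfd from -0.0245 to 0.465 and H3f3b from -0.197 to 0.0098. Within H3.3WT, Pdgfa was 0.117, Pdgfc 0.0684, H3f3a -0.0559 and Slc1a3 -0.00717. Within H3.3K27M, Pdgfd was -0.0558 and Pdgfrb -0.00378. With the neuron covariate, Pdgfa was 0.0167 and Gja1 0.0172. In the 6 against 6 split, H3f3b was 0.0608 and Slc1a3 -0.00437. With scaled score genes, H3f3b was 0.0278 and Mbp 0.0630. With the continuous score, Slc1a3 was -0.229, and H3f3b was 0.0640 without library 6.

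No paired analysis was possible because the columns carry no replicate number of the labels. Library 8 has the fewest reads, so low genes are least precise there.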
